A study of Mus musculus with 2 samples.

Results

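Transcripts of macrophages and other immune cells, with cytokines, chemokines, galectins and the genes of antigen presentation, were examined in the mRNA of mature mouse oocytes. The 37 genes were taken from a list of symbols and matched to the Ensembl gene identifiers of the deposited count table, which holds 36227 genes, 18017 of them with counts. Some of the 37 were put on the list because their counts were uneven between the libraries, so their differences are given here as a description and carry no test. Female ICR mice, an outbred strain, were raised in a standard environment and were obese at 12 weeks of age. The slimming group then spent 4 weeks in EE cages (an enriched environment), while the control group, labelled as fed a standard diet, stayed in the normal cage for the same 4 weeks. At 16 weeks, naturally ovulated oocytes at the MII stage (arrested at the second meiotic metaphase) were collected from 3 mice per group, 3 from each mouse. The 9 oocytes of a group were lysed in 1 tube and became 1 library, so there were 2 libraries in all, no replicates within a group and no spread against which to test a difference.

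The slimming library held 20947962 counts and the control library 20242289 counts, so a gene listed at 0 may still have had as many as 3 counts. CPM is a gene's count per 1000000 counts of its library, and on this scale the limit is 0.143 for slimming and 0.148 for control. The labelled oocytes carried their defining markers: Gdf9, an oocyte growth factor, had 935825 and 923304 counts in the slimming and control library and the 16 oocyte markers together had 130950 and 129224 CPM. Against that, the 37 immune transcripts made up 0.00603% of all slimming counts and 0.0132% of all control counts. Where a pair of counts is given without its libraries, the slimming count comes first and the control count follows.

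Macrophages are abundant immune cells of the ovary, where they surround follicles and clear dying cells. They sense their surroundings through surface receptors that signal by way of small adaptor proteins, show peptides to T cells on class II molecules of the major histocompatibility complex (MHC), and release cytokines and chemokines, the secreted proteins that call in and activate other white blood cells. Oocytes ovulate inside a cloud of cumulus cells, which have to be taken off before an oocyte is lysed. In a pooled sample such as these, fewer cells of a type and less RNA per cell cannot be told apart.

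The stretches of 250 bases before the start of 6 of the genes are shown because genes of 1 role differed in their counts. They are taken from RefSeq, build GRCm38.p6, by gene symbol (25 of the 37 genes had an entry), and are printed 5′ to 3′ in the direction of the gene. Capitals mark every match, on either strand, of 4 short motifs: CTGATTGG, the Y box of class II genes; GGNNTTTCC, the main part of a kB site, which NF-kB proteins bind; TATAAA, the TATA box; and AGGAAGT, the core read by the myeloid factor PU.1. H2-Aa and H2-Eb1 were chosen as class II neighbours of which 1 was counted in both libraries and the other in the control library alone. Cxcl2, Il1b, Ccl9 and Ccl6 were chosen as cytokine and chemokine genes counted in the control library alone. They lie at chr17:34287824-34288073 (reverse strand), chr17:34305617-34305866 (forward strand), chr5:90903649-90903898 (forward strand), chr2:129371140-129371389 (reverse strand), chr11:83578637-83578886 (reverse strand) and chr11:83593088-83593337 (reverse strand).
H2-Aa: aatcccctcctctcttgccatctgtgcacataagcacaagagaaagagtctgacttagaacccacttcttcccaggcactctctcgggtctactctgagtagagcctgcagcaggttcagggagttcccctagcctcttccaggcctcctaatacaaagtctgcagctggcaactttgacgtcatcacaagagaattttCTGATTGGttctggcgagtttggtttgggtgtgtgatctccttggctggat
H2-Eb1: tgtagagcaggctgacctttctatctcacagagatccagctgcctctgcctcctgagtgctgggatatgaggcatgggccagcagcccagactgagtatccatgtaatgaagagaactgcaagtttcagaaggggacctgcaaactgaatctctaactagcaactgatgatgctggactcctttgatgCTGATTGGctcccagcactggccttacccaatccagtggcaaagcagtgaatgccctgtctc
Cxcl2: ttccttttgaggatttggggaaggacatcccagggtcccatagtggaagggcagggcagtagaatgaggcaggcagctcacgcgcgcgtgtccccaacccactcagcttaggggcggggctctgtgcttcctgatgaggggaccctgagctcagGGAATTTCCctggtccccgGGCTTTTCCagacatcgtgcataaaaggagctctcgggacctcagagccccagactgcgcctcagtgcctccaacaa
Il1b: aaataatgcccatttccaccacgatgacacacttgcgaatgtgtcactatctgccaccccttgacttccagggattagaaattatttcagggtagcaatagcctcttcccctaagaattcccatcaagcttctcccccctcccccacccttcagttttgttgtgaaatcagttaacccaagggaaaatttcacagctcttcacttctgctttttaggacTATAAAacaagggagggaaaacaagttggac
Ccl9: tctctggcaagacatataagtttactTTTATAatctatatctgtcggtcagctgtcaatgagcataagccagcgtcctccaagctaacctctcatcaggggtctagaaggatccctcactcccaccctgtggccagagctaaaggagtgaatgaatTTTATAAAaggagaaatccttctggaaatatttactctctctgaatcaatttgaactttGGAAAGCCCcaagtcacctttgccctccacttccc
Ccl6: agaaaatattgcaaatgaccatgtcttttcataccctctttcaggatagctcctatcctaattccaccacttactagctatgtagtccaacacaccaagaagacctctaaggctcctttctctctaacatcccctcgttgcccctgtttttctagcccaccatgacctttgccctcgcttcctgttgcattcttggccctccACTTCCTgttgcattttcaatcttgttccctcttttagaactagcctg

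The Y box lay 51 to 44 bases before the start of H2-Aa and 62 to 55 bases before that of H2-Eb1, and was in 3.83% of 32851 such stretches of all RefSeq promoters. Cxcl2 held a pair of kB matches and Ccl9 held 1 on the other strand, a motif found in 4.93% of all stretches. A TATA match stood 31 to 26 bases before the start of Il1b, and Ccl9 held 3, of which a pair overlap each other on opposite strands; 12.4% of all stretches hold that motif. The PU.1 core stood in Ccl6 and in 7.69% of all stretches. Of the 25 genes with an entry, 2 held the Y box, 3 the kB motif, 8 the TATA motif and 10 the PU.1 core. The kB motif was also in Reg3g, which had more slimming counts, and the PU.1 core in Lyz1 and Cd3e, which had none in either library. Ccl6 and Ccl9, neighbours on chromosome 11, shared GCCCTCCACTTCC as their longest common run, 13 bases long. A match is a run of letters and not a shown binding site. H2-Aa and H2-Eb1 thus share the Y box, and Ccl6 and Ccl9 share none of the 4 motifs.

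Most of these transcripts with counts were seen in the control library alone. Of the 37 genes, 31 had counts in at least 1 library, and Lyz1, Cd74, S100a8, S100a9, Cd3e and Cd79a had none in either. There were 19 genes counted in the control and at 0 in the slimming library, 1 (Trac) counted in the slimming and at 0 in the control library, and 11 counted in both. Of all 18017 genes with counts, 2186 were at 0 in the slimming library alone and 1551 at 0 in the control library alone. Summed over the 37 genes, there were 1264 slimming counts (60.3 CPM) and 2665 control counts (131.7 CPM). The slimming part of that sum was 32.2%, and without Reg3g, the gene with the largest surplus of slimming counts, it was 26.7%. Some genes were listed for these same counts, so both shares are descriptions.

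A filter of at least 20 counts over both libraries together left 21 of the 37 genes. In the slimming library 14 of them were lower by 2-fold or more and 3 were higher by 2-fold or more, on counts scaled with edgeR's TMM factors after adding 0.5, and 4 were less than 2-fold apart. Over all 11855 genes that passed the same filter, 9.56% were lower and 9.65% higher by that much. The list was chosen in part from these counts, so nothing is read from that gap. The median log2 ratio (slimming over control) of the 21 genes was -5.70, or -3.08 with a count of 0 set to 3 counts, against 0.01 over all genes. It depended on the count minimum, and was -1.15 over the 9 genes with at least 100 counts. Nearest to the 2-fold line on the lower side were Apoe beyond it at -1.15 and H2-Aa short of it at -0.64. On the higher side they were Reg3g beyond it at 2.98 and Laptm5 short of it at 0.12. Of the 37 genes, 27 have a p-value in the authors' deposited table, of which 18 are marked at 0.001 as lower and 3 as higher in the slimming library, where 16.5% and 19.4% of all genes with a p-value are marked. No replicate stands behind that p-value, which rests on read numbers alone.

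**Figure D1:**
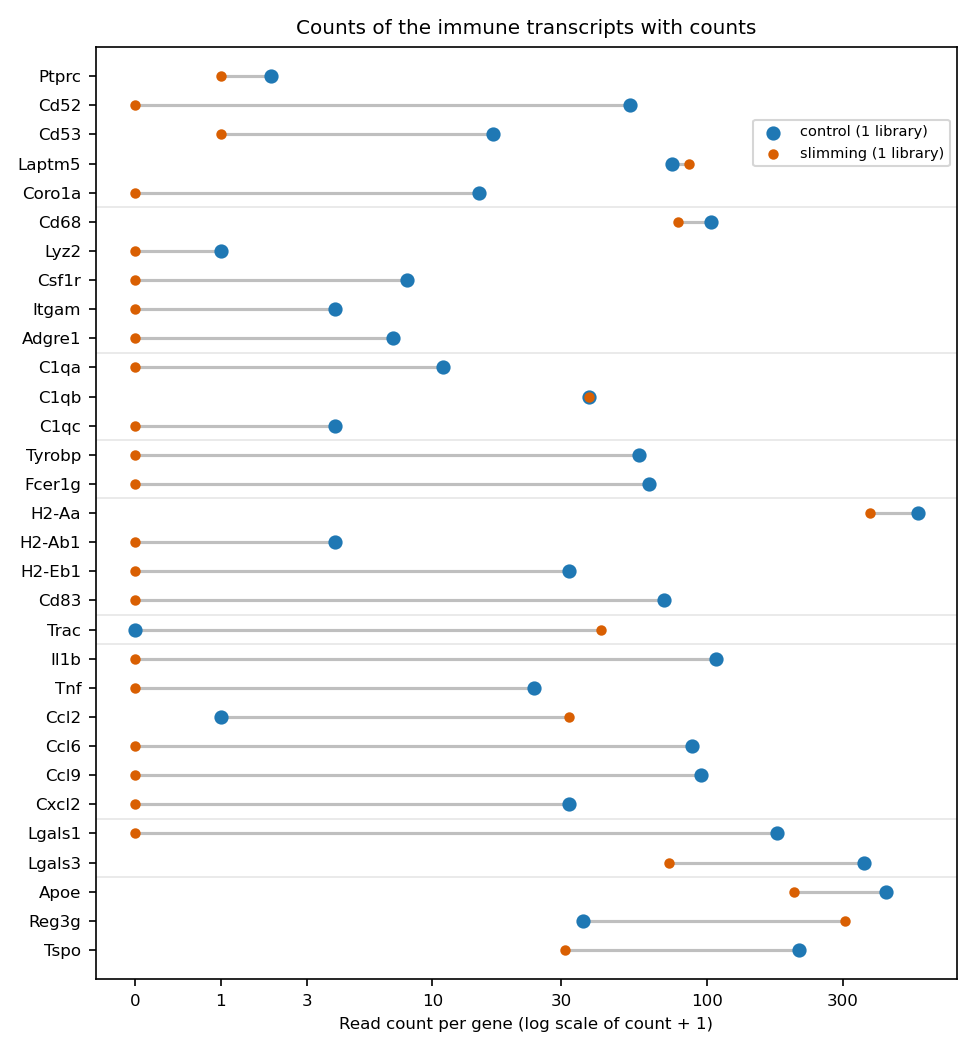
Read counts of the 31 immune transcripts with counts, on a log scale of count + 1, in the control library (blue) and the slimming library (orange), with thin lines between groups of related genes. The slimming point lies at 0 for 19 genes and the control point at 0 for Trac alone.

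Among genes made by white blood cells of all kinds, Cd52, a short glycoprotein of the surface of lymphocytes and macrophages, had 0 slimming counts and 53 control counts (2.62 CPM). Against the floor of 3 slimming counts, with the control count taken as exact, it was at least 18.7-fold lower (log2 -4.22). The 95% counting interval of its log2 ratio came closer to equal, reaching -3.87. The other folds given as at least were taken in the same way, with the library of the 0 set to 3 counts. Cd53, a tetraspanin of white blood cells, had 1 and 17 counts, at a log2 ratio of -3.63 (95% counting interval -9.55 to -1.49). Coro1a, an actin-binding protein of the same cells, had 0 and 15 counts. Its exons overlap those of Bola2 on the other strand, which had 252 and 152 counts and was higher in the slimming library, and Bola2 is named after its values were seen. Ptprc, the phosphatase CD45 that defines white blood cells, had 1 and 2 counts. Laptm5, a lysosomal membrane protein of blood cells, had 86 and 75 counts, a log2 ratio of 0.12 (-0.35 to 0.58). So in this group of 5, Laptm5 had nearly equal counts, and Cd52, Cd53 and Coro1a had more in the control library. Ptprc had too few counts to give a direction.

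Of the macrophage genes among the 37, all but Cd68 had 8 counts or fewer in each library. Cd68, a glycoprotein of the lysosome that is abundant in macrophages, had 79 and 103 counts (3.77 and 5.09 CPM), a log2 ratio of -0.46 (-0.91 to -0.03). The receptor of the macrophage growth factor, Csf1r, had 0 and 8 counts. The surface markers Adgre1 (F4/80) and Itgam (CD11b) had 0 and 7, and 0 and 4 counts. Lyz2, a lysozyme that macrophages make in large amounts, had 0 and 1 count, and its close copy Lyz1 had none. Csf1r, Adgre1 and Itgam were therefore counted in the control library alone, at 4 to 8 counts. Lyz2 was at the level of a single read. Exons of Csf1r overlap Hmgxb3 on the other strand (3503 and 2868 counts), and those of Itgam overlap Gm49368 on the same strand. The few reads of Csf1r and Itgam thus cannot be assigned with certainty. Of 15 further macrophage and myeloid genes under 20 counts, 10 had more CPM in the control library. Among all genes with so few counts, 58.9% had more there. Fcgr2b (7 and 0 counts), Fcgr1 (6 and 1) and Fcgr3 (9 and 4) had more slimming counts, and Fcgr4 (0 and 9) had fewer. Hmgxb3 and these Fc receptors are named after their values were seen.

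The C1q genes encode the 3 chains of the first component of complement, which tags dying cells for uptake, and lie side by side on chromosome 4. C1qb had 38 counts in each library, a log2 ratio of -0.08 (-0.77 to 0.61) after scaling. C1qa had 0 and 11 counts and C1qc 0 and 4. The 3 chains thus were not counted in equal proportion in either library, although at these counts a small change in C1qc was not detectable.

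Tyrobp and Fcer1g stood out as a pair. Tyrobp (DAP12) and Fcer1g (the gamma chain of Fc receptors) are small membrane adaptors that carry an ITAM, a tyrosine-based motif through which many receptors of macrophages and natural killer cells signal. No slimming read of either was counted, whereas Tyrobp had 57 counts (2.82 CPM) and Fcer1g 62 (3.06 CPM) in the control library. They were at least 20.1-fold and 21.9-fold lower in the slimming library. Of the genes that act with the adaptors, those with the highest CPM were close to equal. Fyn, a kinase, had 3268 and 3371 counts, and Plcg2, a phospholipase, 340 and 290. Among 9 such kinases and partners that passed the filter, 3 were lower by 2-fold or more and 0 higher. The shares over all genes that passed it were 9.56% and 9.65%. The 3 lower partners were the kinase Src at 5 and 21 counts, the phosphatase Ptpn6 at 12 and 41, and the exchange factor Vav1 at 8 and 17. The interval of Vav1 (-2.59 to 0.12) included 0. Syk, the kinase that binds the ITAM, had no counts in either library and is named after its values were seen.

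Class II genes split as well. H2-Aa, the alpha chain of the I-A molecule, had the most counts of the 37 genes in each library, 374 (17.9 CPM) and 550 (27.2 CPM), at a log2 ratio of -0.64 (-0.83 to -0.44). Its partner chain H2-Ab1 had 0 and 4 counts. H2-Eb1, the beta chain of I-E, had 0 and 32 counts, at least 11.3-fold lower. Cd74, the invariant chain that escorts class II molecules and is abundant in cells that carry them, had no counts in either library, so the high count of H2-Aa came without those of its partners. Cd83, which keeps class II molecules at the surface of dendritic cells and B cells, had 0 and 70 counts, at least 24.7-fold lower.

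Other genes of antigen presentation were mostly less than 2-fold apart. Among 12 that passed the filter, 3 were lower and 1 higher by 2-fold or more, with a median log2 ratio of -0.04. Over all genes that passed it, 9.56% were lower and 9.65% higher. The counting interval lay below 0 for 4 of the 12 and above 0 for 3. H2-K1, a class I heavy chain, had 299 and 399 counts, a log2 ratio of -0.50, and Rfxap, a subunit of the factor that binds class II promoters, 418 and 358. Tap1, a peptide transporter, had 0 and 22 counts and was at least 7.76-fold lower, with exons that overlap Psmb9 on the other strand. H2-Ob, a chain of a class II chaperone, had 7 and 19 counts, and Cd40, a receptor of antigen-presenting cells, went the other way at 34 and 6, a log2 ratio of 2.33 (1.15 to 3.96).

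Of the 5 neutrophil and lymphocyte genes among the 37, 4 had no counts. S100a8 and S100a9, the calprotectin chains that fill neutrophils, had no counts in either library. Cd3e of the T cell receptor complex and Cd79a of the B cell receptor had none either. Trac, the constant segment of the T cell receptor alpha chain, went the other way, with 42 slimming counts (2.00 CPM) and 0 control counts, at least 13.2-fold higher in the slimming library. Among the other lymphocyte genes, Zap70, a T cell kinase, was at least 2-fold lower with 4 and 30 counts, and Cd5, a surface receptor of T cells, was at least 2-fold higher with 64 and 29. Ms4a1 (CD20) had 465 and 420 counts, so the list mixed genes with equal and with uneven counts. Of 17 further genes of neutrophils and mast cells, 4 had counts and 1 reached 20: Cpa3, a mast cell protease, with 1 and 25 counts, a log2 ratio of -4.17 (-10.1 to -2.11).

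Cytokine and chemokine genes were counted almost wholly in 1 library or the other. Il1b (interleukin 1 beta), a cytokine of activated macrophages, had 0 and 107 counts (0 and 5.29 CPM), at least 37.7-fold lower. Tnf, the tumour necrosis factor, had 0 and 24 counts, at least 8.46-fold lower. The CC chemokines Ccl6 and Ccl9, which myeloid cells make, had 0 and 88, and 0 and 95 counts, at least 31.0-fold and 33.5-fold lower. Cxcl2, a chemokine that draws neutrophils, had 0 and 32 counts and was at least 11.3-fold lower. Ccl2, which draws monocytes, was the exception, with 32 and 1 counts and a log2 ratio of 4.36 (2.34 to 10.3). Summed, the 6 genes had 32 and 347 counts (1.53 and 17.1 CPM), of which 8.44% were slimming counts, and all 32 slimming counts were those of Ccl2.

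Other cytokine genes that passed the filter were mostly less than 2-fold apart. Among 47 in the table, 11 passed it, with a median log2 ratio of -0.28. Of these 11, 3 were lower and 0 higher by 2-fold or more. Over all genes that passed it, the shares to set beside these and the following counts were 9.56% lower and 9.65% higher. Of the 27 other cytokine genes with counts, 9 were at 0 in the slimming library alone and 3 in the control library alone. Over all 18017 genes with counts, these were 2186 and 1551. Csf1, the macrophage growth factor, had 1403 and 1344 counts, and Il34, the other ligand of its receptor, 437 and 288, a log2 ratio of 0.52 (0.30 to 0.74). Cxcl16, a chemokine anchored in the membrane, had 1 and 38 counts, a log2 ratio of -4.76 (-10.7 to -2.76), Cxcl14 had 15 and 57, and Il4 had 6 and 14 with an interval (-2.97 to 0.17) that included 0. Of 12 receptors, 2 were at least 2-fold lower (Tlr3 at 104 and 209 counts, and Ifnar1 at 7 and 14) and 1 higher (Il4ra at 15 and 5), and the intervals of Ifnar1 and Il4ra included 0. Cxcr3 had 6952 and 5202 counts and Il17ra, a receptor of interleukin 17, 971 and 1764, a log2 ratio of -0.94. Among 16 genes of NF-kB signalling that passed the filter, through which Tnf and Il1b act, 3 were at least 2-fold lower and 1 higher. Their median log2 ratio was 0.00. Rela, the main activating subunit, had 6201 and 5817 counts and its inhibitor Nfkbia 4142 and 3162. Another inhibitor, Nfkbie, had 47 and 149, the receptor kinase Irak1 32 and 90, and Tab1 27 and 0. Of the listed inflammasome genes none passed the filter: Casp1, Casp4, Pycard and Gsdmd had no counts in either library, and Nlrp3 had 1 and 4. These inflammasome genes are named after their values were seen.

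Galectins are secreted lectins that bind galactose on cell surfaces. Lgals1 (galectin 1) had 0 and 176 counts (0 and 8.69 CPM), at least 62.0-fold lower. Lgals3 (galectin 3), which macrophages make in quantity, had 73 (3.48 CPM) and 357 counts (17.6 CPM), 5.14-fold lower (log2 -2.36, -2.75 to -2.00). Among 4 other galectin genes that passed the filter, 2 were lower by 2-fold or more: Lgals8 at 11 and 26, and Lgals9 at 13 and 26. Over all genes that passed it, 9.56% were lower and 9.65% higher. With 20 to 99 counts over both libraries, as Lgals8 and Lgals9 had, 23.4% of all genes were lower. Lgals12 and Lgalsl had more in the slimming library, with 47 and 23, and 237 and 170 counts, and neither was 2-fold apart.

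Apoe, Reg3g and Tspo were counted in both libraries. Apoe, the lipid carrier of lipoproteins that macrophages also secrete, had 202 (9.64 CPM) and 425 counts (21.0 CPM), 2.22-fold lower in the slimming library (log2 -1.15, -1.40 to -0.91). Of 8 further genes of lipid carriage and uptake that passed the filter, 0 were at least 2-fold lower and 1 higher, Apod at 51 and 0 counts. Over all genes that passed it, 9.56% were lower and 9.65% higher. Scarb1, the receptor of high-density lipoprotein, had 1577 and 1570, and Lpl, lipoprotein lipase, 905 and 823. Reg3g, an antimicrobial lectin of the gut, had 305 (14.6 CPM) and 36 counts (1.78 CPM), a log2 ratio of 2.98 (2.50 to 3.54). Its relative Reg3d had 22 and 0 counts, at least 6.93-fold higher in the slimming library, and was the 1 of 6 other Reg genes with at least 20 counts. Reg genes are close in sequence, and how the authors counted reads with several matches is not given in the sources used here.

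Tspo, which sits in the outer membrane of mitochondria and is high in steroid-making cells and macrophages, had 31 (1.48 CPM) and 211 counts (10.4 CPM), 7.10-fold lower (log2 -2.83, -3.44 to -2.30). Its exons overlap those of Mcat on the other strand, and Mcat, named after its values were seen, went the other way with 286 and 86 counts (log2 1.65, 1.30 to 2.02). Whether the counting used strand is not given in the sources used here, so reads of the pair cannot be told apart. Among 6 partners of Tspo with at least 20 counts 0 were 2-fold apart, where 9.56% of all such genes were lower and 9.65% higher. Dbi, its ligand, had 11607 and 9886 counts and Acbd3, which binds it, 2108 and 3001, a log2 ratio of -0.59.

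Compared per kilobase of exon, on lengths of GENCODE vM21 (build GRCm38), the levels of the control library were led by Tspo (9.92 CPM per kilobase), Apoe (9.82), Lgals1 (9.63), Lgals3 (9.49) and H2-Aa (7.15), all of comparable size. In the slimming library the order was another one, with Reg3g (6.89), H2-Aa (4.70), Apoe (4.51) and Cd68 (3.00) at the top. Tyrobp and Fcer1g, with their short transcripts, reached 4.22 and 3.50 CPM per kilobase in the control library.

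**Figure D2:**
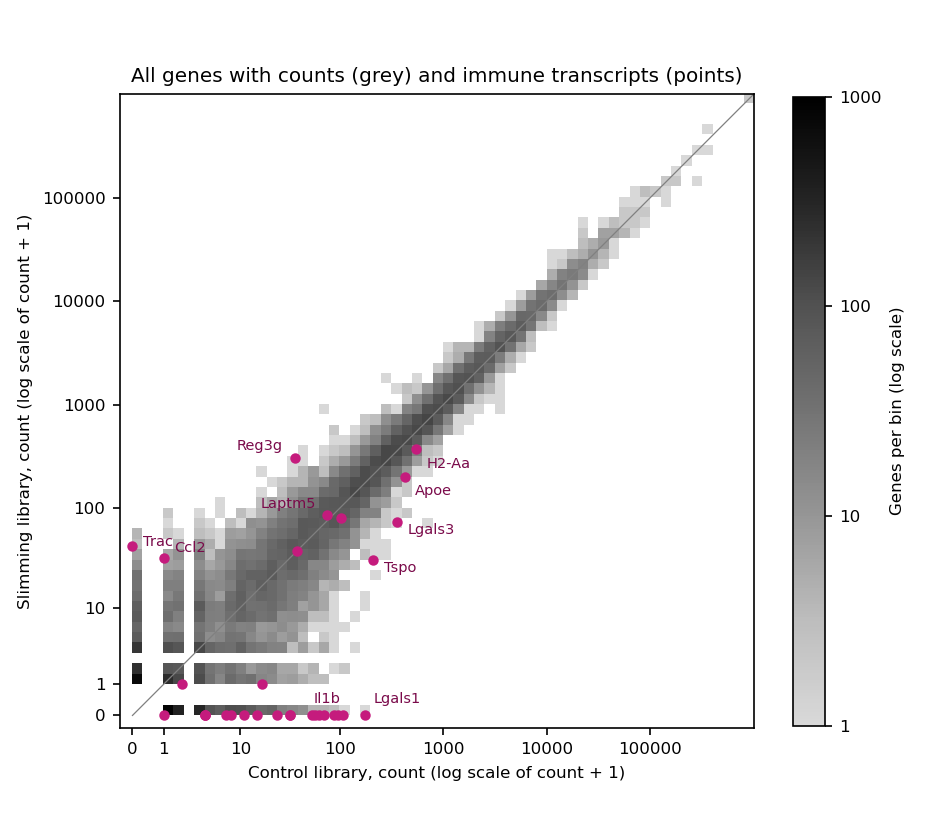
Counts of all 18017 genes with counts in the control (horizontal) and slimming library (vertical), both on a log scale of count + 1, as genes per bin in grey, with the 31 immune transcripts as points and the line of equal counts. Lgals1 and Il1b lie on the bottom edge at 176 and 107 control counts, to the right of where other genes at 0 in the slimming library end.

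How unusual a 0 is depends on the count in the other library. Of all genes with 20 to 49 counts in the control library 4.63% were at 0 in the slimming library, of those with 50 to 99 counts 0.762% (11 of 1444), and of those with 100 to 199 counts 0.136% (2 of 1468), which are Lgals1 and Il1b. The reverse shares, of genes at 0 in the control library, were 2.9%, 0.272% and 0 of 1450. In all 13 genes had at least 50 control counts and 0 in the slimming library. The immune transcripts Lgals1, Il1b, Ccl9, Ccl6, Cd83, Fcer1g, Tyrobp and Cd52 were 8 of them, and the other 5, named after their values were seen, were Chrnd (93 counts), Vim (66), Inha (63), Fsd2 (63) and Tro (50). Among all genes with at least 20 counts over both libraries, 0.894% were at 0 in the slimming and 0.489% at 0 in the control library, where the immune transcripts had 11 and 1 of 21. Since uneven counts were a reason for listing some of these genes, the overlap is a description.

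**Figure D3:**
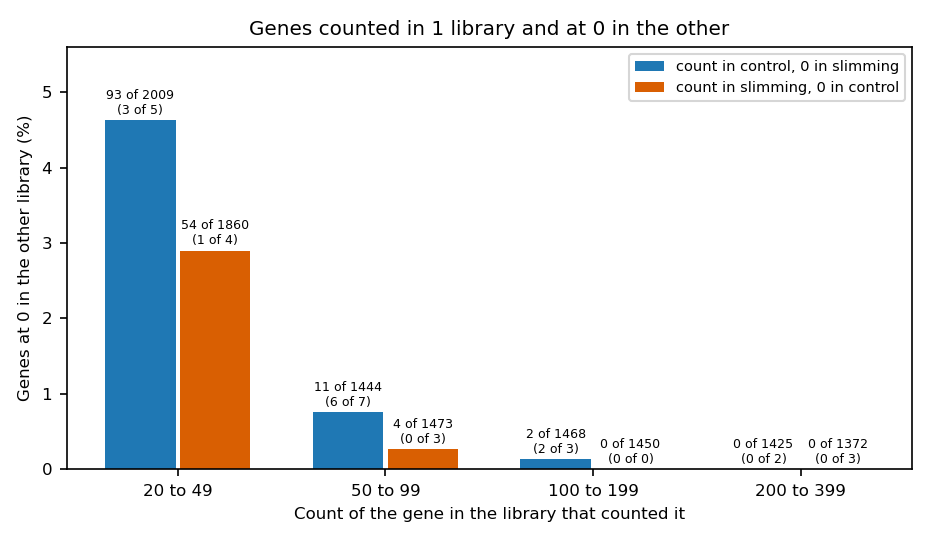
Share of genes at 0 in 1 library among genes counted in the other, by the count in that other library (blue, counted in control; orange, counted in slimming). Above each bar stands the number of genes at 0 of all genes, and in brackets the same for the immune transcripts: 6 of 7 of those with 50 to 99 control counts were at 0 in the slimming library.

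The 10 immune transcripts with 1 to 19 counts over both libraries (Ptprc, Cd53, Coro1a, Lyz2, Csf1r, Itgam, Adgre1, C1qa, C1qc and H2-Ab1) had 2 slimming counts and 73 control counts in all. Each of the 10 had more CPM in the control library. Among all genes with so few counts, 58.9% had more in the control library.

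The table held 323 other genes of the same pathways. The filter left 117, and 23 of these (19.7%) were lower and 9 (7.69%) higher by 2-fold or more in the slimming library, with a median log2 ratio of -0.04. The share depends on depth. With 20 to 99 counts over both libraries 19 of 48 (39.6%) were lower, against 23.4% of all genes, and 7 (14.6%) higher, against 21.5%. With at least 100 counts 4 of 69 (5.8%) were lower, against 3.9% of all genes, and 2 (2.9%) higher, against 4.78%. Further macrophage and myeloid genes had 1 of 12 at least 2-fold lower, the scavenger receptor Marco at 14 and 41 counts, and 0 higher. Progranulin (Grn), a growth factor precursor, had 25607 and 18729 counts and the lysosomal protease Ctsd 3210 and 3016. Ctsb, another such protease, had 84 and 126 counts and the mannose receptor Mrc1 59 and 79, with an interval (-1.01 to 0.00) that reached 0. Among 7 further complement genes 1 was at least 2-fold lower, the regulator Cr1l at 19 and 55 counts. Masp1, a protease of the lectin pathway, had 59 and 92, and C1qbp, a mitochondrial protein that binds C1q, 1468 and 1234.

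Of 9 interferon-response genes that passed the filter 2 were at least 2-fold lower and 2 higher. Over all genes that passed it, 9.56% were lower and 9.65% higher. Oasl1 had 12 and 41 counts and the transcription factor Irf1 12 and 32, while Bst2 (tetherin), which holds viruses at the membrane, had 95 and 30. Ifitm3, a membrane protein against viral entry, had 5230 and 3761 counts, a log2 ratio of 0.39. Among S100 genes S100a10, the partner of annexin A2, had 0 and 30 counts, at least 10.6-fold lower, while S100a14 had 1060 and 1166 and S100a16 99 and 89.

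**Figure D4:**
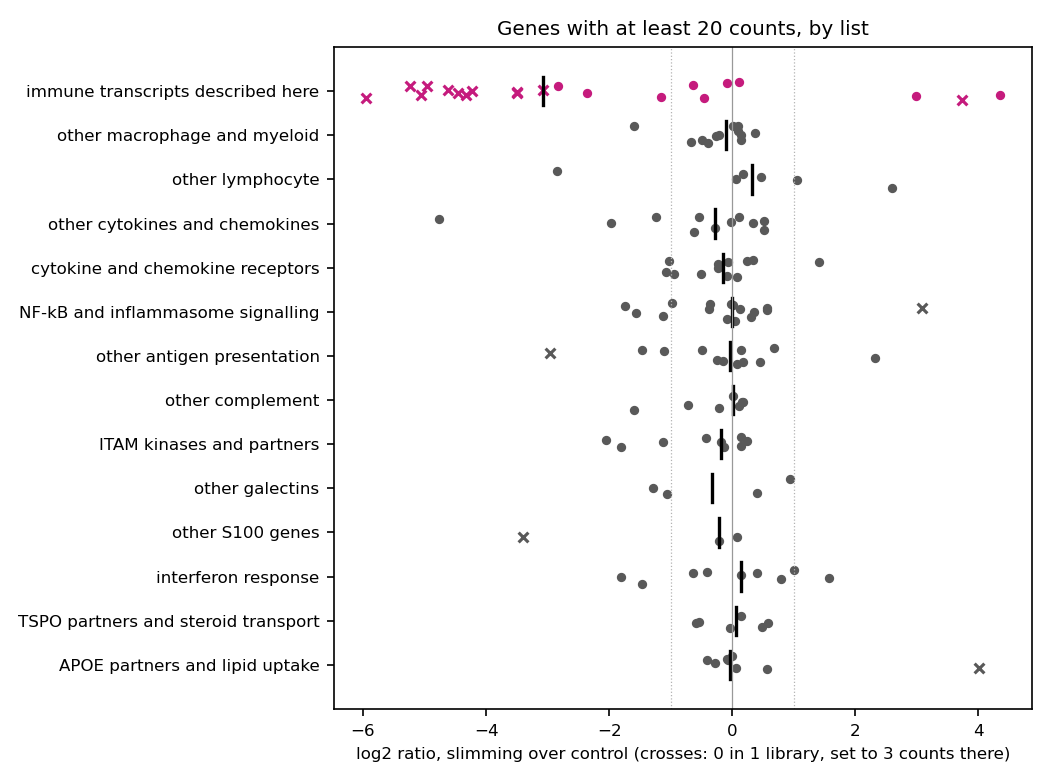
Log2 ratio, slimming over control, of each gene with at least 20 counts, for the immune transcripts (top) and for lists of related genes with 3 or more such genes. Crosses are genes at 0 in 1 library, set to 3 counts there, black bars are medians and dotted lines mark 2-fold; the top row has its median at -3.08 and the medians of the other rows lie near 0.

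Markers of other cells that could adhere to an oocyte were uneven in part. Of 20 cumulus and granulosa markers 13 had counts, and 6 of these stood at 0 in the slimming and none at 0 in the control library. Apart from Inha, those 6 had 17 control counts or fewer. Of all 18017 genes with counts, 2186 were at 0 in the slimming library alone and 1551 in the control library alone. Kitl (39 and 25 counts) and Has2 (5 and 2) had more slimming counts, and are named after their values were seen. The summed CPM of the 20 markers was equal (534 in each library) because Serpine2 had 10290 and 9608 counts, with Cyp19a1 (723 and 793) and Nr5a2 (136 and 204) next. Inha, the inhibin alpha chain of granulosa cells, had 0 and 63 counts and the steroid enzyme Hsd3b1, named after its values were seen, 1 and 72. Stromal and theca markers summed to 3.39 and 4.94 CPM, with Vim (vimentin) at 0 and 66 counts, Tagln at 23 and 30, and Acta2 (smooth muscle actin) at 43 and 0. Endothelial markers summed to 55.5 and 56.4 CPM, mostly Pecam1 (748 and 675 counts), with Kdr (252 and 244) and Eng (147 and 155). Of the 4 endothelial markers with at least 20 counts, 1 was at least 2-fold lower (Tek, at 8 and 49) and 0 higher. Over all genes with at least 20 counts, 9.56% were lower and 9.65% higher. Tie1 had 0 and 15 counts, and Tek and Tie1 are named after their values were seen. Oviduct markers summed to 6.44 and 13.1 CPM, led by Tppp3 (93 and 210 counts), Dnah5 (26 and 15) and Epcam (10 and 20). Red blood cell markers summed to 1.24 and 0.840 CPM, nearly all Epb42 (26 and 16 counts). The part of these cells in the counts of the immune transcripts was not tested.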

How the data were processed

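Per the labels' protocols, the mRNA of the oocytes of each group was reverse transcribed from oligo(dT) primers, tailed, amplified in many PCR cycles and sequenced on a SOLiD 4 instrument; no molecular identifiers are named, so copies made by PCR are not independent molecules. Per the submitters' processing notes the build was mm9. Not given in the sources used here are the aligner, the counter, and how strand and reads with several matches were treated. The authors deposited raw read counts per Ensembl gene, slimming first and control second per the file headers, and blank entries were read as no count. The authors also deposited a scaled log2 ratio, a z-score (a score comparing the 2 libraries) and p-values and q-values.

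Symbols came from GENCODE vM21 (build GRCm38), as did exon overlaps and lengths. Libraries were scaled with TMM (edgeR 4.0.16, R 4.3.3), factors 1.01 (slimming) and 0.989 (control). Log2 ratios had 0.5 added to each count, and their 95% intervals are exact Clopper-Pearson intervals of the slimming share of a gene's counts. Intervals and floors (3 counts) cover counting error only, and the floors cover that of the 0 alone. A fold against a count of 0 was taken against 3 counts in that library, with the other count as exact. Such a fold is therefore not a 95% limit. Genes with at least 20 counts over both libraries were counted by size, at least 2-fold. No test of the groups was possible with 1 library each. All 37 genes were named, with the 3 largest ratios and the 2 highest mean CPM of each other list and the 3 highest of each marker list, among genes with at least 20 counts; 1 gene of the lymphocyte list is not reported here. Members, lists and rules were chosen with earlier results of these data known. Python 3.11.15, pandas 2.3.3, scipy 1.17.1 and matplotlib 3.10.9 were used. Alternatives were other scalings (total count, DESeq2 1.42.0 size factors), 1 added to each count, and other count minimums (at least 1 and at least 100).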

Additional observations from a re-analysis of the deposited data

How the results depend on the processing

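Scaling by total count or by DESeq2 size factors, adding 1 to each count, and taking the authors' deposited scaled ratio left the sign and the side of the 2-fold line of each of the 21 immune transcripts as they were. The median log2 ratio of all genes moved to 0.0442 by total count and 0.0275 by DESeq2 size factors. The count minimum set how many genes were called. With at least 1 count, 23 of 31 immune transcripts were at least 2-fold lower and 3 higher, at a median log2 ratio of -3.63. Of all 18017 genes 3774 were lower and 3186 higher, at a median of -0.0500. The median of the other cytokine genes was -1.22 with at least 1 count and 0.16 with at least 100. That of the other complement genes was -1.15 and 0.12. With at least 100 counts, 5 of 9 immune transcripts were lower and 1 higher, at a median of -1.15, as were 328 and 402 of all 8408 genes. Fewer genes are tested there. At a limit of 3 counts in place of 0, 2 immune transcripts were counted in the slimming library alone. The summed slimming share was 29.6% without H2-Aa and, in a sum added after the data were seen, 26.7% without Reg3g. No paired analysis was possible because each group is 1 library. Genes under 20 counts have wide counting intervals, and the pools of 9 oocytes give no measure of the spread between mice.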

Other observations

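In the other direction 4 genes had at least 50 slimming counts and no control count, and none of them was an immune transcript. They were Apod (51 counts), a lipocalin that carries small lipids, Tmod4 (54), which caps actin filaments in muscle, Rbbp9 (56) and Kcnn3 (58), a potassium channel opened by calcium; Tmod4, Rbbp9 and Kcnn3 were named after their values were seen.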
